A study of Homo sapiens with 12 samples.

Results

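The comparison described here sets the cytoplasm of HEK293T cells transfected with K700E SF3B1 against the nuclei of the same kind of cells. Its members are 6 of the 12 libraries of the series, 3 titled as K700E cytoplasm and 3 as K700E nucleus, and 20394 of the 67049 genes counted in each library. Those genes reached the minimum count of edgeR's filter. The other 6 libraries are the matching fractions after transfection with wild-type (WT) SF3B1, and they enter below as a comparison.

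HEK293T is a line derived from human embryonic kidney, and a plasmid encoding SF3B1 (pIRES2 backbone) was introduced by Lipofectamine 2000. Cells were separated into nuclear and cytoplasmic fractions 48 h later, RNA was extracted with Trizol, and libraries were made with NEBNext Ultra reagents. All 12 libraries come from transfected cells that also keep their own SF3B1 gene, and no untransfected or empty-vector sample enters here. Nothing in the labels tells whether the replicate libraries were grown as separate cultures, and the p-values then reflect library-to-library spread only, part of which can be technical.

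A transcript is made, capped, spliced and polyadenylated in the nucleus, and most finished mRNAs are then bound by the TREX complex and NXF1 and pass through the nuclear pore. Unspliced precursors, RNAs with introns that are kept, small nucleolar and small nuclear RNAs, and architectural long non-coding RNAs such as MALAT1 and NEAT1 are known to be found mainly in the nucleus, while mRNAs under translation and the transcripts made inside mitochondria lie outside it. SF3B1 is a subunit of the U2 small nuclear ribonucleoprotein (snRNP), which recognises the intron branch point, and K700E is a recurrent substitution in myeloid neoplasms.

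The genes used here as fraction markers, like the other members, were chosen with earlier results of these data known. That they followed their labels in all 6 libraries is thus no independent check of the fractions. TUBA1B (ENSG00000123416, chr12:49127782-49131397 in GRCh38), which encodes an alpha-tubulin, had 23.8, 6.91 and 18.6 CPM (read counts scaled to a common library size with TMM factors) in the nuclear libraries and 409, 539 and 857 in the cytoplasmic ones. EIF4EBP1, a repressor of cap-dependent translation, had 7.19, 9.16 and 7.50 CPM in the nucleus and 174, 106 and 260 in the cytoplasm. For both genes every cytoplasmic library lay above every nuclear one. NEAT1 (chr11:65422774-65445540), the long non-coding RNA on which paraspeckles assemble, had 595, 1062 and 903 CPM in the nucleus and 47.9, 45.8 and 51.0 in the cytoplasm. OGT (chrX:71533083-71575897), which encodes the enzyme that adds O-linked N-acetylglucosamine, had 1003, 1362 and 1142 against 126, 143 and 135 CPM. The groups did not overlap for these transcripts either, with the nuclear libraries on top. On the log2 scale the cytoplasm-to-nucleus difference was 5.19 ± 0.54 (SE) for TUBA1B, 4.50 ± 0.50 for EIF4EBP1, -4.14 ± 0.29 for NEAT1 and -3.11 ± 0.23 for OGT, with edgeR adjusted p-values of 6.59e-07, 1.26e-06, 2.85e-08 and 3.58e-08 (n = 3 libraries a group). For TUBA1B, 36.6% of its exon bases lie in exons of another annotated gene, and 31.4% of its stretches of 50 bases recur in another gene, so part of its reads may have been counted elsewhere or not at all.

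Total counts ran from 9322380 to 11024517 in the nuclear libraries and from 13584141 to 16393638 in the cytoplasmic ones. Between 30007 and 32017 genes had a count in the nucleus against 23562 to 24210 in the cytoplasm. Libraries of 1 fraction correlated with each other at 0.959 or more in log CPM, and with those of the other fraction at 0.852 or less. Of 9 kidney-line markers 8 were tested and 7 were higher in the cytoplasm, where they summed to 1744 to 1991 CPM against 515 to 651 in the nucleus, and PAX8 was at 0 in all 6 libraries. Of 10 blood cell markers 2 reached the filter, the list summed to 7.34 to 11.9 CPM in the nucleus and 2.40 to 4.13 in the cytoplasm, and CD3E and HBB were at 0. Of 9 fibroblast and matrix markers 4 were tested, with sums of 34.7 to 44.9 and 18.3 to 32.0 CPM, and THY1 was at 0. No spike-in was described, so every value is a share of a library and not an amount of RNA per cell.

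Of the 20394 genes, 5723 (28.1%) were higher in the cytoplasm and 7725 (37.9%) were lower, both at an edgeR adjusted p under 0.05, the rule behind every call below. Together they made up 65.9% of the genes tested. In 6167 genes (30.2%) all 3 cytoplasmic libraries lay above all 3 nuclear ones, and in 8246 (40.4%) all lay below. The median log2 difference over all genes was -0.29. These values follow the TMM scaling. With library size alone the median moved by -0.41 and the split became 4215 higher and 9460 lower, and with upper quartile factors it moved by -0.37 with 4423 higher and 9249 lower, so that the share of calls that were higher was 30.8% and 32.4% in place of 42.6%. Such a shift applies to all genes alike, so a median smaller in size than it, like those of protein-coding genes, nucleoporins, mitotic genes and ZNF genes below, has a sign that depends on the scaling.

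The gene types separated along this axis. Of 13888 protein-coding genes tested, 5066 were higher in the cytoplasm and 3803 lower, with a median of 0.19. Of 23 genes of the mitochondrial genome, 20 were higher and 0 were lower, with a median of 2.39. At the nuclear end, 2191 of 3446 long non-coding RNAs were lower and 154 higher (median -2.44). With library size alone the long non-coding genes higher numbered 93, with upper quartile factors 99, and with at least 1 CPM in every library 53. The small RNAs lay further down, with 83 of 96 small nucleolar and small Cajal body RNA genes lower (median -4.56), 88 of 99 small nuclear RNA genes and their copies lower (median -5.95), and 157 of 174 other small RNA genes lower (median -5.84), the last being mostly microRNA precursors and genes the annotation types as miscellaneous RNA. A single small nucleolar gene, a single small nuclear one and 2 other small ones were higher. With only the 6 K700E libraries fitted, the small nucleolar genes lower numbered 48.

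**Figure D1:**
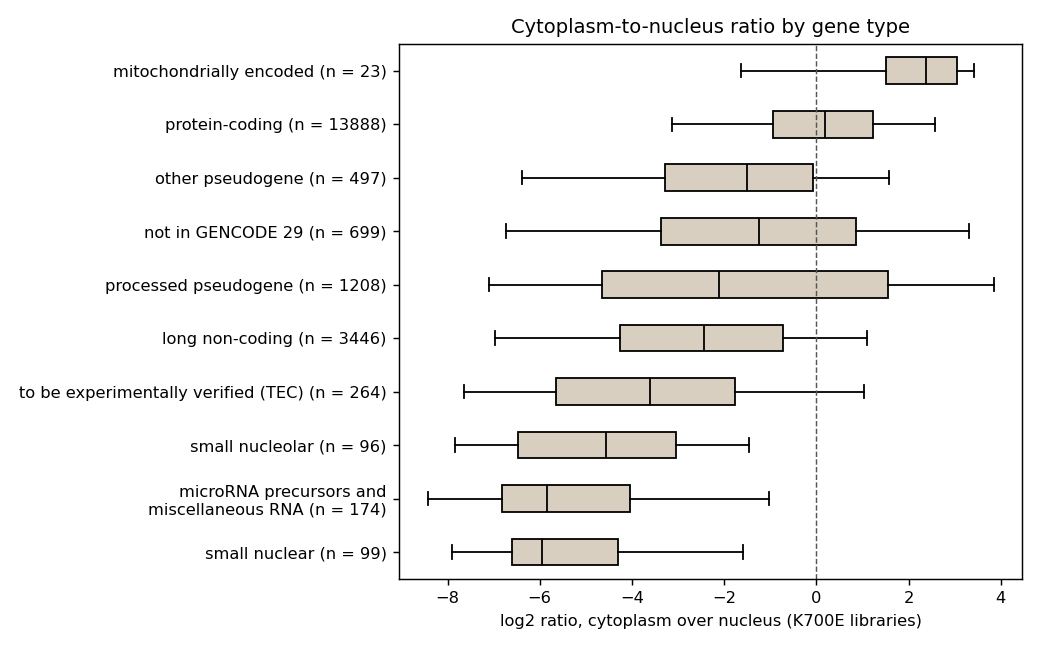
Log2 cytoplasm-to-nucleus ratio (x axis) of the genes tested, by gene type, in the K700E libraries. Boxes give the quartiles and the median, whiskers the 5th and 95th percentiles. Mitochondrially encoded genes lie to the right with a median of 2.39, protein-coding genes straddle 0 with a median of 0.19, and small nuclear RNA genes lie furthest left with a median of -5.95.

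The filter bears on these counts, most of all for the non-coding types. Many of their genes reached the minimum count in nuclear libraries alone, as 1804 of 3446 long non-coding RNAs and 74 of 96 small nucleolar genes did, and such genes had to be low in the cytoplasm. Among the 1336 long non-coding RNAs that reached it in the cytoplasm, 154 were higher and 514 lower, with a median of -0.54. Of the 9 small nucleolar genes that reached it there, 1 was higher and 4 lower (median -1.16), and of 7 other small genes 2 were higher and 2 lower (median -0.22). Of the small nucleolar genes 27 had 0 counts in all 3 cytoplasmic libraries, as did 55 small nuclear and 90 other small ones. With these set to the bound given by a floor of 3 counts over the group, the medians were -3.74, -3.81 and -3.82.

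As a share of all counts, long non-coding RNA took 3.54%, 4.33% and 4.92% of the nuclear libraries and 1.05%, 0.893% and 0.904% of the cytoplasmic ones, means of 4.26% ± 0.693 (SD) and 0.948% ± 0.0858. Transcripts of the mitochondrial genome took 0.249%, 0.323% and 0.249% in the nucleus and 1.14%, 1.10% and 1.13% in the cytoplasm. Small nucleolar genes took 0.0402%, 0.0447% and 0.0362% against 0.00270%, 0.00235% and 0.00224%. Protein-coding genes dominated both fractions, with 93.7% ± 0.880 of nuclear and 96.7% ± 0.152 of cytoplasmic counts. The 3 libraries of a fraction did not overlap those of the other for any of the 10 types, and each had an exact two-sided permutation p of 0.1 (also 0.1 after adjustment over the types), the smallest that 3 against 3 libraries allow.

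Processed pseudogenes, which are retrotransposed copies of mRNAs, held both directions. Of 1208 tested, 309 were higher and 630 lower, and their share of counts was larger in the cytoplasm (0.762% ± 0.0509 against 0.467% ± 0.0733). The 561 processed pseudogenes with under 5% of their 50-base stretches shared with another gene had 19 higher and 434 lower, with a median of -4.12. Of all processed pseudogenes, 569 reached the filter in nuclear libraries alone and had to be low in the cytoplasm, and the 499 that reached it in the cytoplasm had 309 higher and 45 lower. Of 497 other pseudogenes 40 were higher and 260 lower, and their share of counts was 0.225% ± 0.0231 in the cytoplasm against 0.675% ± 0.106 in the nucleus.

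SF3B1 was the only gene among the 10 most abundant transcripts of both fractions. The nuclear list was led by MALAT1, with 1670, 8209 and 4739 CPM in the nucleus and 76.9, 76.6 and 36.7 in the cytoplasm, and by SRSF11, an SR-related splicing protein, with 3731, 5782 and 4775 against 616, 640 and 456 CPM. MALAT1 varied widely among the nuclear libraries, the lowest of which was still far above the cytoplasmic ones. The other nuclear leaders were IRS4, an insulin receptor substrate, the RNA helicases DDX17 and DDX5, the splicing factors LUC7L3, RBM39 and U2SURP, HNRNPA2B1 and SF3B1 itself. HNRNPA2B1 did not differ by the test, with 2034, 2303 and 1783 CPM in the nucleus and 2028, 2440 and 1920 in the cytoplasm (log2 difference 0.06 ± 0.25, edgeR adjusted p = 0.835). The cytoplasmic list was led by EEF1A1, the elongation factor that delivers aminoacyl-tRNA to the ribosome, with 14758, 13413 and 14975 CPM against 1330, 1182 and 698 in the nucleus. It was followed by SF3B1, EEF2, RPL4, RPS2, the mitochondrial ribosomal RNA MT-RNR2, RPS4X, NPM1, RPL3 and HNRNPA1.

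SF3B1 (chr2:197389784-197435091) is the gene carried by the plasmid. It had 1918, 1024 and 1857 CPM in the nucleus and 6917, 8294 and 8560 in the cytoplasm, a log2 difference of 2.31 ± 0.32 (edgeR adjusted p = 1.18e-05). Counts per gene do not tell the plasmid's transcript from the cell's own. Per kilobase of merged exons, the cytoplasmic level was 865 CPM per kb for SF3B1, against 2418 for EEF1A1 and 935 for RPL4. In the nucleus the order was different, with 982 CPM per kb for IRS4, 562 for SRSF11, 552 for MALAT1 and 175 for SF3B1.

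**Figure D2:**
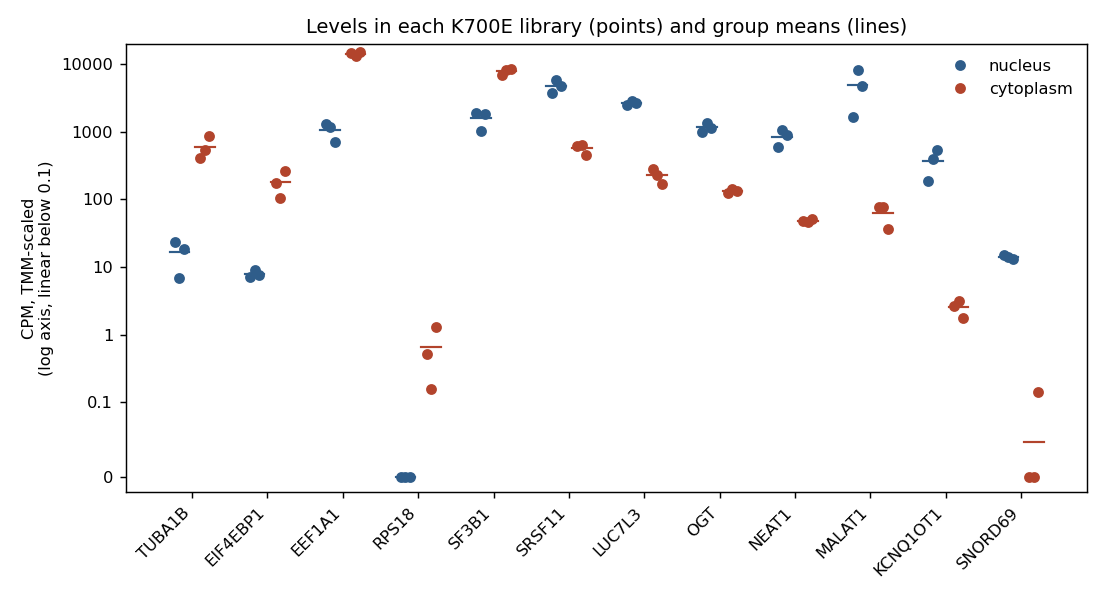
TMM-scaled CPM (y axis, logarithmic above 0.1) of 12 genes in each of the 3 nuclear (blue) and 3 cytoplasmic (red) K700E libraries, with group means as lines. EEF1A1 lies between 698 and 1330 CPM in the nucleus and at 13413 or more in the cytoplasm, MALAT1 between 1670 and 8209 and at 76.9 or less, and no gene shown has overlapping groups.

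Ribosomal protein genes had the highest median of the coding lists. Of 75 cytosolic ribosomal protein genes tested, 70 were higher in the cytoplasm and 4 lower. Their median log2 difference was 2.93, against 0.19 over protein-coding genes and -0.29 over all genes. The list summed to 14946, 16154 and 9682 CPM in the nucleus and to 104066, 87582 and 101728 in the cytoplasm, so its sum was several times larger in each cytoplasmic library. RPS2, part of the small subunit, had 580, 483 and 323 CPM in the nucleus and 4662, 3514 and 7017 in the cytoplasm (log2 difference 3.46 ± 0.39, edgeR adjusted p = 1.51e-06). RPL4, of the large subunit, rose by 2.61 ± 0.23 and RPL3 by 2.64 ± 0.28.

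Translation initiation and elongation factors behaved likewise, with 32 of 41 higher, 5 lower and a median of 1.55. EEF1A1 rose by 3.75 ± 0.32 and EEF2, the translocase of elongation, by 3.40 ± 0.37. EIF2S3B, a retrocopy of the gene for a subunit of initiation factor eIF2, was among the coding genes with the largest difference (2.48, 1.38 and 0.785 CPM against 38.3, 27.5 and 23.6, log2 4.25 ± 0.44), and 25.5% of its 50-base stretches recur elsewhere. Of 20 cytosolic aminoacyl-tRNA synthetases 10 were higher and 2 lower (median 0.51). KARS1, which charges lysine tRNA, was the highest of them at 2.37 ± 0.20, and MARS1, which charges methionine tRNA, was lowest at -0.75 ± 0.23. That list was the less sided of the translation lists, and its count of higher members was 4 with library size alone.

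Protein folding, degradation and cytoskeletal genes were also higher in the cytoplasm. Of 13 TRiC chaperonin and prefoldin genes 12 were higher (median 2.02), led by CCT7 at 3.34 ± 0.25. Of 22 heat shock and J-protein genes 18 were higher and 0 lower (median 1.55), with HSP90AB1 at 327, 206 and 273 CPM in the nucleus and 2809, 3150 and 2635 in the cytoplasm. Of 31 proteasome subunits 23 were higher and 3 lower (median 1.17), PSMB2 rising by 3.51 ± 0.22. Polyubiquitin UBB was among the largest coding differences, with 34.9, 26.3 and 25.7 CPM against 528, 506 and 709 (log2 4.32 ± 0.26, edgeR adjusted p = 1.22e-08). Of 16 tubulins and tubulin cofactors 13 were higher and 2 lower (median 2.41). The tubulins TUBB4A at 4.96 ± 0.36 and TUBA1C at 4.55 ± 0.47 stood beside TUBA1B among the 10 largest coding differences, which also held the vesicle protein RAB3D, NHP2 of H/ACA ribonucleoproteins, the proton pump subunit ATP6V1F and MARCKSL1.

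Energy metabolism showed the same side from both genomes. All 13 mRNAs of the mitochondrial genome were higher in the cytoplasm, from MT-ND3 at 1.35 ± 0.43 and MT-ATP8 at 1.36 ± 0.41 to MT-CO2 at 3.41 ± 0.33. MT-CO1, a core subunit of cytochrome c oxidase, had 231, 225 and 283 CPM in the nucleus and 2076, 2312 and 2599 in the cytoplasm. Of the nuclear genes, 35 of 38 encoding complexes II to V were higher and 1 lower (median 2.08), 22 of 35 for complex I were higher and 2 lower (median 1.43), and 59 of 73 for mitochondrial ribosomal proteins were higher and 4 lower (median 1.78). Glycolytic genes had 14 of 18 higher and 0 lower (median 1.56). GAPDH, the glyceraldehyde 3-phosphate dehydrogenase, had 270, 155 and 186 CPM in the nucleus and 2348, 2385 and 3627 in the cytoplasm.

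**Figure D3:**
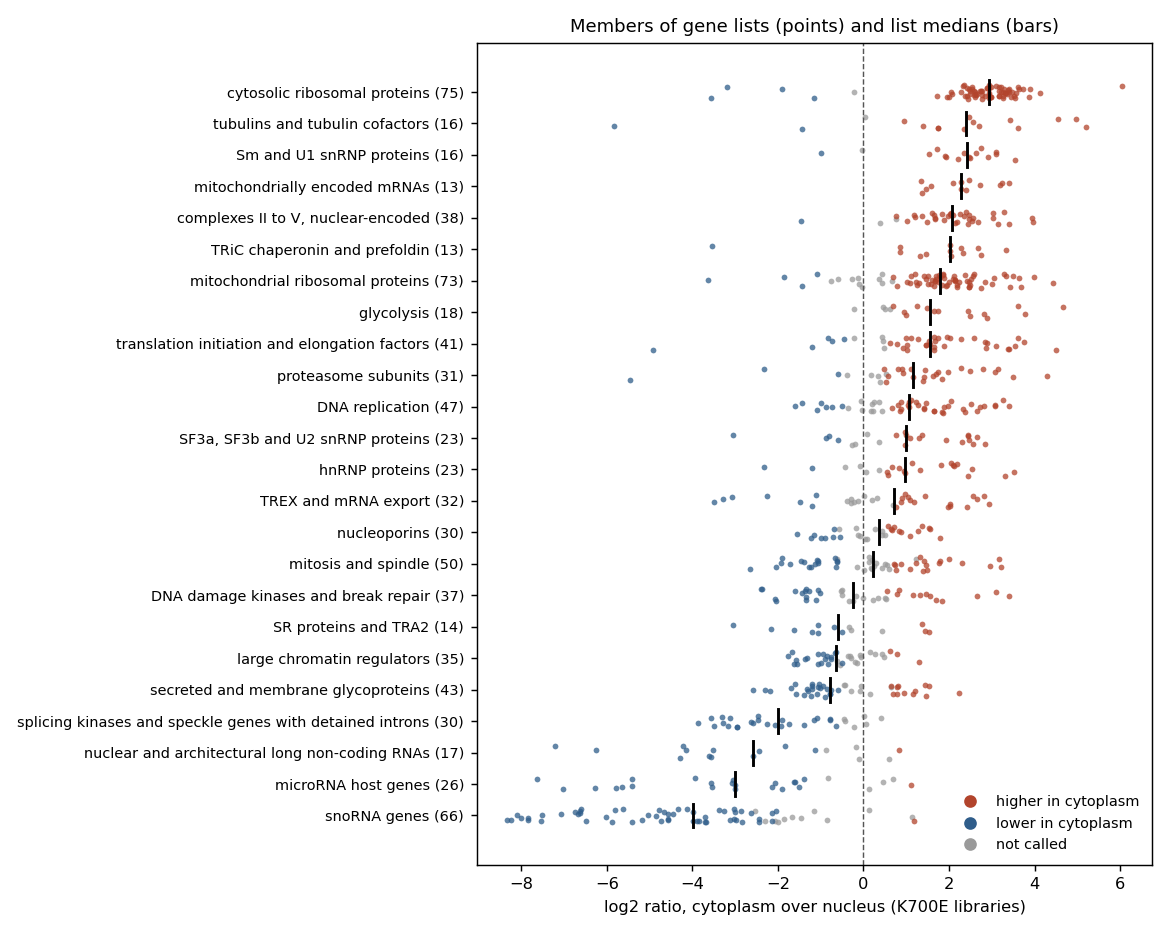
Log2 cytoplasm-to-nucleus ratio (x axis) of each tested member (points) of 24 gene lists, coloured by the edgeR call, with list medians as black bars and the number of members tested in brackets. Medians run from 2.93 for cytosolic ribosomal proteins to -3.99 for snoRNA genes, and single members of mostly cytoplasmic lists lie far to the left.

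Some members of these lists lay on the opposite side. In 13 lists with mostly cytoplasmic members, pooled after their values were seen, 353 genes were higher, 54 were not called and 25 were lower. PSMA2, a proteasome subunit, had 21.3, 20.5 and 14.3 CPM in the nucleus and 0.171, 0.929 and 0.142 in the cytoplasm. EIF4A1, the helicase of the cap-binding complex, had 51.7, 38.3 and 30.9 against 1.45, 1.47 and 1.07 CPM. RPS10 had 41.9, 44.7 and 23.2 against 3.34, 3.17 and 2.78 CPM. In each of these the cytoplasmic libraries lay below all nuclear ones, with log2 differences of -5.46 ± 0.55, -4.91 ± 0.41 and -3.56 ± 0.30.

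Annotation overlap differed between these classes. Exons of another gene covered at least 25% of the exon bases of 24 of the 353 higher genes (6.80%), of 7 of the 25 lower ones (28.0%) and of 5 of the 9 that were lower by more than 2 on the log2 scale. For PSMA2, EIF4A1, RPS10, MRPL38 and NDUFV2 the covered share was 34.6%, 48.6%, 39.4%, 41.1% and 28.4%. Of their 50-base stretches 9.88%, 100.0%, 32.8%, 47.6% and 74.02% recur in another gene, in the same order. At least 25% of these stretches recur for 35 of the 353 higher genes, 7 of the 25 lower ones and 5 of the 9. PFDN5, RPL36A and PSMA6, with covered shares of 0.0%, 8.40% and 14.1%, were also lower. Of their 50-base stretches 0.26%, 7.85% and 9.23% recur. Over all protein-coding genes the median log2 difference was 0.26 where no exon base was covered (7194 genes). It was 0.085 with under 10% covered, 0.32 with 10% to 25% and 0.13 with 25% to 50%. PSMA2, EIF4A1, RPS10, MRPL38 and NDUFV2 belong to the class of 25% to 50%, in which 263 of 747 genes were higher and 217 lower. The median was -0.21 with 50% to 75% covered (239 genes) and -1.78 with 75% or more (93 genes). Whether the authors' counting left out reads that fall in more than 1 gene is not given in the sources used here. The part of overlap or of shared sequence in these calls was not tested. A few abundant genes were barely counted at all. RPS18 had 0 nuclear counts and 26 cytoplasmic ones, and LDHA 1 and 37, so their folds rest on very few reads.

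Genes for membrane and secreted proteins divided. Of 43 genes for the translocon, glycosylation and folding in the endoplasmic reticulum, 32 were higher in the cytoplasm and 2 lower (median 1.74). HSP90B1, the chaperone of that compartment, was lower, with 843, 1034 and 626 CPM in the nucleus and 423, 349 and 299 in the cytoplasm (log2 -1.23 ± 0.29, edgeR adjusted p = 0.00142). Of 43 secreted and membrane glycoproteins 12 were higher and 24 lower (median -0.78). LAMA5, a laminin chain, had 142, 122 and 126 CPM in the nucleus and 13, 20.7 and 30.9 in the cytoplasm, and AGRN, a proteoglycan of basement membranes, fell by 2.30 ± 0.39. ATP1B1, a membrane glycoprotein, was higher at 1.52 ± 0.25. The glycoprotein list had a median of 23 exons and 9394 exon bases against 8 exons and 4511 bases for the endoplasmic reticulum list. Cholesterol synthesis genes had 10 of 25 higher and 3 lower (median 0.61). The regulator SREBF1 (-1.20 ± 0.37) was lower, and the enzymes PMVK (3.40 ± 0.33) and CYP51A1 (3.53 ± 0.59) were higher.

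Splicing genes fell on both sides by class. The core particle proteins were higher in the cytoplasm, with 14 of 16 Sm and U1 snRNP genes higher and 1 lower (median 2.41), and 15 of 23 SF3a, SF3b and U2 snRNP genes higher and 4 lower (median 0.99). SF3A1 rose by 2.66 ± 0.21, SF3B5 by 2.85 ± 0.33 and SNRPD2 by 3.54 ± 0.29. The U2-associated helicases DDX42 (-0.88 ± 0.21) and DDX46 (-0.80 ± 0.23) were lower, as was RBM17 (-0.59 ± 0.22), named after its value was seen. U2AF1, which binds the 3′ splice site, was lower as well (-3.05 ± 0.30), but 98.1% of its 50-base stretches recur in another gene. Of 23 hnRNP genes 17 were higher and 2 lower (median 0.96), the lower ones being HNRNPH1 at -2.32 ± 0.23 and HNRNPDL at -1.20 ± 0.25.

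The genes for SR proteins, which bind exonic enhancers, and for TRA2 proteins leaned to the nucleus, with 3 of 14 higher, 8 lower and a median of -0.60. SRSF11 (-3.06 ± 0.25) and SRSF5 (-2.16 ± 0.38) were lowest. SRSF5 had 885, 665 and 657 CPM in the nucleus and 173, 160 and 161 in the cytoplasm. SRSF3, SRSF8 and SRSF9 were higher, at 1.43 ± 0.29, 1.54 ± 0.21 and 1.38 ± 0.30.

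A list of splicing kinases and nuclear speckle genes, many known to keep introns in nuclear polyadenylated RNA, was the most nuclear of the coding lists. It also holds genes of neither class, such as OGT, OGA and MAT2A. Of 30 tested, 24 were lower in the cytoplasm and 0 higher, with a median of -2.01. CCNL2, a cyclin of speckles, had 877, 617 and 929 CPM in the nucleus and 55.7, 50.7 and 58.5 in the cytoplasm (log2 -3.88 ± 0.23, edgeR adjusted p = 1.12e-08). LUC7L3, a U1-associated protein, had 2486, 2873 and 2712 against 285, 234 and 168 CPM (log2 -3.55 ± 0.34). The helicase DDX17 had 2925, 3000 and 3109 against 310, 467 and 391 CPM (log2 -2.95 ± 0.26). Of members picked after their values were seen, the kinase CLK1, which phosphorylates SR proteins, lay at -2.47 and OGA, which removes the sugar that OGT adds, at -2.08. Not all members were lower. The kinases SRPK1 and SRPK2 had log2 values of 0.42 ± 0.25 and 0.05 ± 0.24 and were not called, and neither were PNN, SRRM1, SRRM2 and RSRC2. The list summed to 23230, 26728 and 23758 CPM in the nucleus and 7110, 7020 and 6196 in the cytoplasm.

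Export, pore and decay factors were spread over both fractions. Of 32 TREX and mRNA export genes 16 were higher and 7 lower (median 0.72). NXT2, a partner of NXF1, rose by 2.82 ± 0.39 and CETN2, a centrin of the TREX-2 complex, by 2.94 ± 0.30. SARNP, a TREX component, was lower (7.35, 7.26 and 7.33 CPM against 0.856, 0.232 and 1.14, log2 -3.28 ± 0.59), with 38.5% of its exon bases in exons of another gene. Nucleoporins had 12 of 30 higher and 8 lower (median 0.35), from NUP37 at 1.79 ± 0.22 to NUP42 at -1.55 ± 0.22, and only 6 were higher with library size alone. For the nuclear exosome and nonsense-mediated decay the counts were 18 higher and 7 lower of 34 (median 0.55), with the exosome subunit EXOSC5 at 2.81 ± 0.39, and with ZFC3H1 of the nuclear decay pathway at -2.28 ± 0.36 and the kinase SMG1 at -1.60 ± 0.27.

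Of 38 RNA polymerase II and Mediator genes 22 were higher and 5 lower (median 0.98). POLR2L, a small polymerase subunit, rose by 3.36 ± 0.29, while POLR2B, a core catalytic subunit, was lower (-1.09 ± 0.19), as were MED23 (-2.60 ± 0.24) and MED17 (-2.64 ± 0.35). Of 35 large chromatin regulators 3 were higher and 19 lower (median -0.64, with a median of 31 exons). ATRX, a chromatin remodeller, had 573, 957 and 778 CPM in the nucleus and 280, 237 and 164 in the cytoplasm, and the methyltransferase KMT2C fell by 1.67 ± 0.25. SMARCA4 (1.29 ± 0.30), CREBBP (0.78 ± 0.20) and CHD3 (0.62 ± 0.20) were the 3 higher ones. DNA replication genes had 31 of 47 higher and 7 lower (median 1.06), led by POLE3 (3.41 ± 0.34) and MCM2 (3.26 ± 0.36). Damage kinases and break repair genes had 12 of 37 higher (32.4%) and 14 lower (37.8%), with a median of -0.24. These shares were 36.5% and 27.4% among protein-coding genes, and 28.1% and 37.9% among all genes tested. XRCC6 of the Ku heterodimer lay at 3.10 ± 0.23 and LIG4 at -2.40 ± 0.31. Mitotic genes had 18 of 50 higher (36.0%) and 17 lower (34.0%), with a median of 0.22. Their share of higher genes was near the 36.5% of protein-coding genes. MAD2L1 of the spindle checkpoint lay at 3.21 ± 0.34 and the kinesin CENPE at -2.05 ± 0.24.

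Of 11 histone variants with polyadenylated mRNAs 9 were higher and 0 lower (median 1.90). Only 24 of 64 replication-dependent histone genes were tested, 7 higher and 1 lower (median 0.93). Their share of higher genes, 29.2%, was near the 28.1% of all genes tested and below the 36.5% of protein-coding genes. Of 29 immediate early genes 17 were higher and 1 lower (median 1.27), with JUN at 2.55 ± 0.27 and BTG2 at 2.62 ± 0.39, and DUSP6, a phosphatase of ERK, was the lower one at -2.20 ± 0.48. Of 22 genes of the integrated stress response 15 were higher and 3 lower (median 1.57). ASNS, asparagine synthetase, was the lowest of them at -4.50 ± 0.48 and shares 82.0% of its 50-base stretches with another gene. Zinc-finger genes named ZNF were balanced, with 113 higher and 120 lower of 425 and a median of 0.06. These shares were 26.6% and 28.2%, against 36.5% and 27.4% of protein-coding genes.

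Among single coding genes at 10 CPM or more, the largest nuclear excesses were those of PRG4, GNRH1, DDX47, NPEPL1, CCDC168, AGT, GLIPR1, CDK5RAP3, POLR2J3 and HOXD9. PRG4 (chr1:186296279-186314562), which encodes lubricin, had 22.2, 27.1 and 14.0 CPM in the nucleus and 0.171, 0 and 0 in the cytoplasm, where 2 reads were counted against 753. The ratio was 409, with an exact 95% interval of 113 to 3385 that covers counting error only. HOXD9, a homeobox transcription factor, had 155, 150 and 151 CPM in the nucleus and 3.34, 4.03 and 2.56 in the cytoplasm (log2 -5.52 ± 0.36), with no exon base in another gene's exons. AGT, angiotensinogen, had 31.1, 33.5 and 23.0 against 0.856, 0.387 and 0.356 CPM.

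The cytoplasm-to-nucleus ratio of coding genes fell with the number of exons. The count of exons was taken from the longest transcript in GENCODE release 29. Single-exon genes had a median of 0.73 (476 genes), those with 5 to 9 exons 0.51 (4218 genes), those with 15 to 19 exons -0.13 (1464 genes) and those with 30 or more -0.94 (706 genes). In that last class 44 genes were higher and 418 lower, against 233 and 93 of the single-exon genes. Spearman's rho across 13879 coding genes was -0.29, and -0.34 across the 5753 with no overlap and under 5% shared sequence. Genes are not independent replicates, and these correlations are descriptions.

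**Figure D4:**
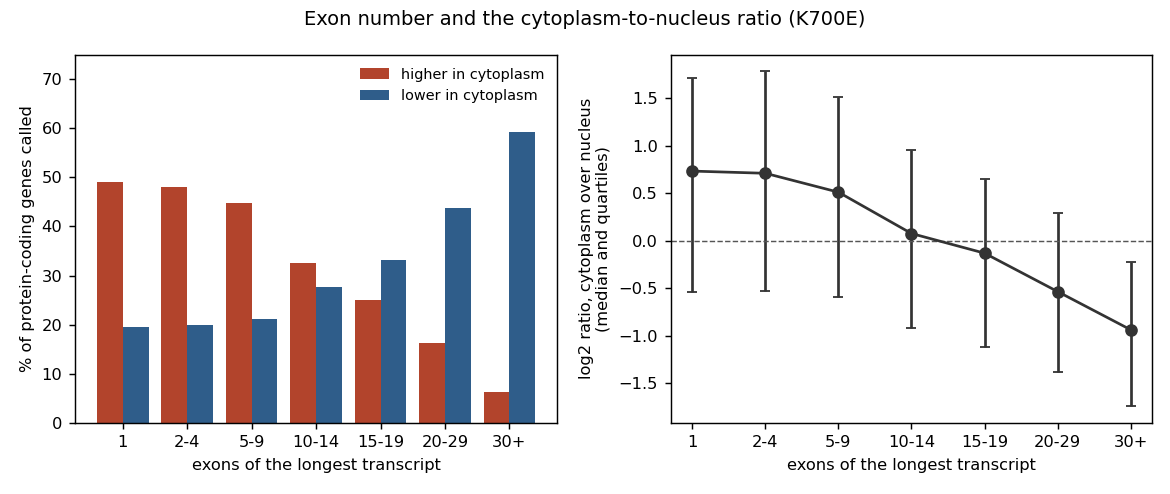
Left, percentage of protein-coding genes called higher or lower in the cytoplasm (y axis, from 0) by number of exons of the longest transcript (x axis) in the K700E libraries. Right, median log2 cytoplasm-to-nucleus ratio with the quartiles as bars. The share of lower genes grows from 19.5% of single-exon genes to 59.2% of those with 30 or more exons, while the share of higher genes falls from 48.9% to 6.23%.

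Exon number and length run together, and both were recorded. Genes with 1 to 2 kb of merged exons had a median of 1.28 and those with 12 kb or more -0.61, with a rho of -0.25. Within genes of 3 to 6 kb the medians were 0.72 with under 5 exons, 0.56 with 5 to 9, 0.11 with 10 to 19 and -0.58 with 20 or more. Within 6 to 12 kb they were 0.17, 0.27, -0.06 and -0.63. The genomic span had a weaker relation (rho -0.16). The mean level over the 6 libraries moved with the ratio too (rho 0.22). Its medians were -1.61 under 1 CPM (910 genes), 0.42 at 20 to 100, 0.34 at 100 to 500 and 1.55 at 500 CPM or more (213 genes). The part of level in the order by exon number was not tested. Long non-coding RNAs showed no such order by exon number, with medians of -2.38, -2.71, -2.38, -2.44 and -2.11 for 1, 2, 3, 4 to 5, and 6 or more exons.

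A list of nuclear and architectural long non-coding RNAs, which also holds others such as NORAD, had 12 of 17 lower (70.6%) and 1 higher (median -2.59). This was near the 63.6% lower and the median of -2.44 of all long non-coding RNAs tested. KCNQ1OT1 (chr11:2608328-2699994), the antisense transcript of an imprinted cluster, had 189, 403 and 539 CPM in the nucleus and 2.65, 3.17 and 1.78 in the cytoplasm, a log2 difference of -7.22 ± 0.62 (edgeR adjusted p = 1.14e-07). MALAT1 had -6.26 ± 0.60. NORAD, which binds PUMILIO proteins in the cytoplasm, was the 1 higher member, with 152, 272 and 186 CPM against 346, 408 and 331 (log2 0.83 ± 0.25, edgeR adjusted p = 0.00747). Of members picked after their values were seen, TUG1, FTX and FIRRE were lower, at -2.44, -4.21 and -2.59, and OIP5-AS1 and PVT1 were not called at -0.10 and -0.18.

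By position, 1090 of 1651 antisense transcripts were lower (median -2.64), 658 of 1165 intergenic ones (median -2.06) and 234 of 301 that lie in introns of other genes (median -3.92). Where no exon base lay in the body of another gene (891 long non-coding RNAs), 50 were higher and 465 lower, with a median of -1.64. Many long non-coding RNAs reached the filter in nuclear libraries alone and had to be low, so the order of these classes is not read as a result. Of 734 antisense RNAs named AS, 379 reached it in the cytoplasm, with 47 higher and 138 lower (median -0.44). Of 335 intergenic RNAs named LINC, 164 did, with 21 higher and 53 lower (median -0.46). Reads of an antisense or intronic RNA and of its partner cannot be told apart unless the counting used strand, which the sources used here do not state. The largest nuclear excesses at 5 CPM or more after KCNQ1OT1 were those of HMGA2-AS1, XPC-AS1, MIR222HG, MALAT1, USP3-AS1, RUSC1-AS1 and LINC02367. MIR222HG, a microRNA host, had 636, 387 and 344 CPM in the nucleus and 8.22, 6.11 and 3.35 in the cytoplasm. Of 26 microRNA host genes 21 were lower and 1 higher (median -3.01), and of the 17 that reached the filter in the cytoplasm 12 were lower and 1 higher.

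Of 26 snoRNA host genes 9 were higher and 9 lower (median -0.14), shares near the 28.1% and 37.9% of all genes tested. Among all long non-coding RNAs tested the shares were 4.47% and 63.6% (median -2.44). The 24 hosts that reached the filter in the cytoplasm had a median of -0.08, against -0.54 for the 1336 long non-coding RNAs that did. SNHG16 had 49.0, 32.7 and 34.9 CPM in the nucleus and 423, 376 and 401 in the cytoplasm (log2 3.36 ± 0.34, edgeR adjusted p = 5.10e-07), and SNHG29 117, 77.7 and 122 against 601, 457 and 537. SNHG1 (1042, 1176 and 807 against 564, 243 and 340 CPM) and SNHG5 (-2.11 ± 0.30) were lower. With library size alone 4 hosts were higher. SNHG16, PIK3CD-AS2, C2orf74-DT, EPB41L4A-AS1, SNHG29, RNASEH1-DT, LINC02381 and TRAM2-AS1 were the long non-coding RNAs with the largest cytoplasmic excess, and RNASEH1-DT and TRAM2-AS1 were the lowest of them at 2.30 ± 0.36 and 2.23 ± 0.44.

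Most snoRNAs of vertebrates are cut from introns of other genes after splicing and then guide chemical modification of ribosomal RNA in the nucleolus. Box C/D snoRNAs guide methylation and carry a box C near the 5′ end and a box D near the 3′ end. H/ACA snoRNAs guide pseudouridylation and end with an ACA a few bases before the 3′ end. The sequences below are those of snoRNA genes whose values are compared with their hosts, read from GENCODE release 29 transcripts (GRCh38) by gene ID, as DNA. They were chosen after their values were seen, except SNORD69 and SNORD17, which the rule for named genes took. Capitals mark TGATGA and the last CTGA in the box C/D sequences and the last ACA in the H/ACA sequence.
SNORD69: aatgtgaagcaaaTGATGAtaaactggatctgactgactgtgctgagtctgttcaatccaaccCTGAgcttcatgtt
SNORD6: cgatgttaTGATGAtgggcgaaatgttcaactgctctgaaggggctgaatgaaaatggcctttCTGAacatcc
SNORD14A: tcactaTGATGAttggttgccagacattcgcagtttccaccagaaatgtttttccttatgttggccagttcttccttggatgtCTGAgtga
SNORD100: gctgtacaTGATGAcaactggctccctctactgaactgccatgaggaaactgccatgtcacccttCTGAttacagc
SNORD17: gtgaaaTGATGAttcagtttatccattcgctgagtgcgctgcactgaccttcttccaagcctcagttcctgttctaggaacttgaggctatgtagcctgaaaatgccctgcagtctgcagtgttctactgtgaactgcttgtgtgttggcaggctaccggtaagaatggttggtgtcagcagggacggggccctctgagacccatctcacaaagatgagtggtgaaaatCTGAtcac
SNORA66: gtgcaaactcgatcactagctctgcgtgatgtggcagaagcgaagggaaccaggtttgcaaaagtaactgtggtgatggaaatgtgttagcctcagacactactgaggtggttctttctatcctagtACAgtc

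These lie at chr3:52692736-52692812 (SNORD69, plus strand), chr11:93731502-93731574 (SNORD6, minus), chr11:17074654-17074744 (SNORD14A, minus), chr6:132816802-132816877 (SNORD100, plus), chr20:17962710-17962946 (SNORD17, minus) and chr1:92840719-92840851 (SNORA66, plus), each inside the body of its host gene. TGATGA followed by CTGA, read on the transcript strand, occurs in 209 of 275 SNORD genes of the annotation (76.0%) and in 1 of 142 SNORA genes (0.704%). An ACA exactly 3 bases before the 3′ end occurs in 107 of 142 SNORA genes (75.4%) and in 4 of 275 SNORD genes. With 237 bases SNORD17 is the longest of those shown, against 73 to 133 for the rest.

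In 3 snoRNA genes picked after their values were seen, the counts were nuclear while the host mRNA was cytoplasmic. SNORD14A had 31.7, 47.3 and 19.4 CPM in the nucleus and 1.45, 0.619 and 0.641 in the cytoplasm (log2 -5.18 ± 0.42), while its host RPS13, a ribosomal protein gene, rose from 136 to 814 CPM (2.58 ± 0.31). SNORD100 had 8.31, 9.42 and 5.06 against 0.941, 0.155 and 0.427 CPM (log2 -3.90 ± 0.61), and its host RPS12 rose by 3.51 ± 0.29. SNORA66 had 15.8, 17.3 and 7.76 against 0.428, 0.232 and 0.285 CPM (log2 -5.40 ± 0.60), and its host RPL5 rose by 2.33 ± 0.22. In all of these the groups of snoRNA values did not overlap.

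SNORD69 and SNORD6 lie in hosts that were themselves lower in the cytoplasm. SNORD69 had 15.3, 14.0 and 13 CPM in the nucleus and 0, 0 and 0.142 in the cytoplasm, 502 counts against 2, a ratio of 273 with an exact 95% interval of 75.1 to 2259. Its host GNL3, a nucleolar GTPase gene, fell by 1.39 ± 0.20. SNORD6, in TAF1D (-1.08 ± 0.28), had 17.7, 15.9 and 7.06 against 0, 0.232 and 0.142 CPM. SNORD17 was the opposite case, with 3.27, 2.59 and 3.40 CPM in the nucleus and 4.62, 8.44 and 8.04 in the cytoplasm (log2 1.19 ± 0.34, edgeR adjusted p = 0.00635), in the host SNX5, a sorting nexin gene, which fell by 0.79 ± 0.21.

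Of 91 snoRNA genes tested 70 lie in a tested host (60 hosts). Most of them reached the filter through the nuclear libraries alone and had to be lower, so no count over the pairs is read as a result. Among other small RNA genes the same limit holds, and single genes are given as values. MIR25, in MCM7 (0.84 ± 0.25), had 18.5, 13.7 and 17.4 CPM in the nucleus and 0, 0 and 0.0712 in the cytoplasm. RNU2-68P, a copy of the U2 RNA gene, had 9.03, 25 and 12 CPM and 0 cytoplasmic counts, so it was at least 196-fold lower (3 counts over the group as the floor). A read on a snoRNA or microRNA gene can come from the processed RNA or from an unspliced host transcript, and gene counts do not separate them. Of 24 matched structural RNA genes such as RN7SK and RMRP, 3 reached the filter and 11 had 0 counts in all 6 libraries.

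**Figure D5:**
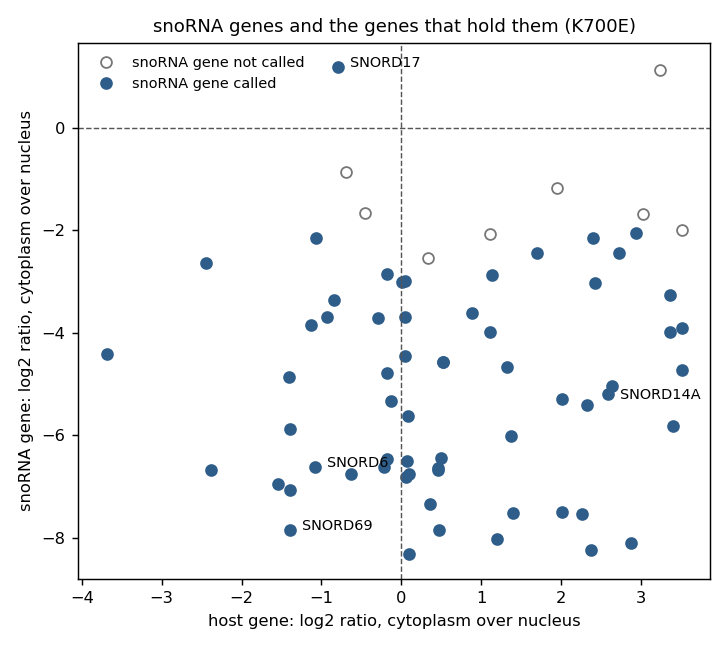
Log2 cytoplasm-to-nucleus ratio of 70 snoRNA genes (y axis) against that of the gene in whose body each lies (x axis) in the K700E libraries, filled where the snoRNA gene was called by edgeR. Points with 0 cytoplasmic counts are fitted values. Most snoRNA genes shown reached the count filter in the nucleus only and had to lie low, and SNORD17 is the called point above 0.

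With WT SF3B1 the same contrast called 5517 genes higher (27.1%) and 8163 lower (40%). The difference between the K700E and the WT ratio, tested as an interaction in edgeR, was called for 0 genes (0.0%), 672 genes (3.3%) had an unadjusted p under 0.05, and the smallest adjusted p was 0.771. DESeq2 called 3. The median standard error of the difference was 0.51 on the log2 scale, so that a typical 95% half-width was about 1.00 before adjustment over genes. Smaller differences between the constructs were not detectable for most genes. Differences well above 1.00 could go uncalled as well after adjustment, as that of RUFY1 below did, so the 0 calls do not show that the constructs were alike.

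Within that error several lists lay to 1 side. All 14 SR protein and TRA2 genes had a lower cytoplasm-to-nucleus ratio with K700E than with WT (medians -0.60 and -0.13). So did 29 of 30 members of the list of splicing kinases and speckle genes (medians -2.01 and -1.42). The same held for all 13 mitochondrial mRNAs (medians 2.29 and 3.18). Of 75 ribosomal protein genes 57 had a higher ratio with K700E (medians 2.93 and 2.66). None of the members of these lists was called, while 4, 6, 2 and 0 of them had an unadjusted interaction p under 0.05. Other lists compared this way leaned less. Among 23 SF3a, SF3b and U2 snRNP genes 15 had a lower and 8 a higher ratio with K700E, and among 17 nuclear and architectural long non-coding RNAs 8 and 9. Over all genes tested the median difference of K700E minus WT was 0.05. Members of a list share their libraries, so the counts are descriptions. Transcript GC content moved with this too. Coding genes of 65% GC or more had a median of 0.06 with K700E and -0.71 with WT (514 genes), and those under 40% GC -0.14 and 0.12 (2254 genes), and its part in the list differences was not tested.

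The genes with the smallest interaction p at 5 CPM or more were RUFY1, DLG4, PMM1, MTURN and KIF15. RUFY1, an endosomal adaptor, had 5.19, 7.86 and 10.1 CPM in the K700E nucleus and 2.48, 2.17 and 3.06 in the K700E cytoplasm, against 3.68, 4.03 and 4 in the WT nucleus and 4.71, 16.4 and 7.26 in the WT cytoplasm. The ratio was thus lower with K700E (-1.58 ± 0.43) and higher with WT (1.28 ± 0.42), and the difference of -2.86 ± 0.60 had an unadjusted p of 0.000198 (adjusted 0.980 in edgeR). DESeq2 called it, with UQCRC2 and an unnamed gene (ENSG00000277104.4), none of which edgeR called. PMM1, phosphomannomutase, had a ratio of 0.70 ± 0.30 with K700E and -0.84 ± 0.30 with WT. DLG4, a scaffold protein gene, had -0.86 ± 0.31 and -2.47 ± 0.33.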

How the data were processed

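The 12 libraries are RNA-seq of fractionated HEK293T cells. Values are whole-number read counts per gene as the authors deposited them, 1 file per library. HISAT2 and DESeq are named per the submitters' processing notes, and no counting program, genome build, annotation or use of strand was given in the sources used here. The counts were compared with edgeR 4.0.16 (R 4.3.3, TMM factors, quasi-likelihood test, 1 fit over all 12 libraries with 4 groups, prior count 2) after filterByExpr (minimum count 10, total 15), and adjusted by Benjamini-Hochberg over 20394 genes, called under 0.05. Levels are TMM-scaled CPM. Gene types, exons and sequences come from GENCODE 29 (GRCh38), matched by 58440 of the gene IDs.

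Named genes are the largest called changes per type (10 each way for coding genes at 10 CPM, 8 for long non-coding and 5 for small RNAs at 5 CPM), the 10 most abundant per fraction, the extremes and exceptions of each of 47 lists, the fraction markers and SF3B1, and the genes with the smallest interaction p or with opposite calls. The members and lists were chosen with earlier results of these data known. DESeq2 1.42.0, other scalings and filters, a replicate block and leaving out each library were tried. Library totals ran from 9322380 to 16393638 in the K700E libraries, and intervals cover counting error only. Deviations from the group means correlated at -0.17, 0.05 and 0.06 between same-numbered libraries of the 2 K700E fractions. Noise within each fraction can hide a shared culture, so these values do not settle whether the numbers mark pairs. Some named genes are not reported here.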

Additional observations from a re-analysis of the deposited data

How the results depend on the processing

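Some of the counts below moved by over 1.5 times under another scaling, filter or set of libraries. Long non-coding RNAs higher in the cytoplasm numbered 93 with library size alone, 99 with upper quartile factors and 53 with at least 1 CPM in every library, a filter that by construction drops genes that fell. That filter left 3938 genes lower and 3951 higher, so that lower genes no longer outnumbered higher ones, with 318 under long non-coding genes lower and 0 small nucleolar genes lower. With only the 6 K700E libraries 48 small nucleolar genes were lower, and 49 with a replicate block as well, an alternative chosen after seeing the data. The difference between the constructs was called for 3 genes by DESeq2, for 31 with no filter, and for 0 to 1 when each library was left out in turn, the 1 being NSF without K700E cytoplasm replicate 2. Other settings moved the counts over all genes, 5723 higher and 7725 lower, by less. The replicate block gave 5725 higher and 7696 lower. Leaving out each K700E library gave 5352 to 5603 higher and 7124 to 7776 lower. DESeq2 called 5426 higher and 8291 lower. The depth limits small RNAs most, many of which had 0 cytoplasmic counts. HNRNPA2B1 and SRPK2, which were not called, took the other sign under several settings. The HNRNPA2B1 log2 fold change was -0.35 with library size alone, -0.30 with upper quartile factors, -0.047 with DESeq2, -0.26 with at least 1 CPM in every library, and -0.037 to 0.18 when each library was left out. The SRPK2 log2 fold change was -0.35, -0.32, -0.059 and -0.27 in the same order, -0.0011 with only the 6 K700E libraries, and -0.087 to 0.29 when each library was left out.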
